A study of Mus musculus with 20 samples.

Results

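The genes of voltage-gated sodium, calcium and HCN channels were examined in RNA-Seq counts from tissue of the preoptic area (POA) of 20 male mice, with 5 mice in each of 4 groups. Members were chosen by symbol (Scn followed by a number and a or b, Cacna1, Cacna2d, Cacnb, Cacng and Hcn), and each had to hold at least 10 counts in every mouse. Of 25239 genes in the table, 44 matched the symbols and 41 met the minimum. The 3 genes under it were Scn4a, the sodium channel of skeletal muscle (0 to 5 counts per mouse), Scn11a, a sodium channel of sensory neurons (5 to 39 counts), and Cacng6, a gamma subunit (5 to 46 counts).

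Control and dnFGFR males were paired on PND 20 with a same sex (SS) male or an opposite sex (OS) female and were collected on PND 320, after 300 days with that partner. dnFGFR mice were homozygous for a transgene that encodes an FGFR1 without its tyrosine kinase domain, driven by a rat GnRH promoter in GnRH neurons, and control mice of the same background came from matings of heterozygous dnFGFR siblings. OS pairs bred and raised pups while SS pairs did not, so partner sex and breeding cannot be told apart. The mice were collected on several dates that did not mix the genotypes, so genotype and date of collection cannot be told apart either. Groups are named by genotype and housing, for example control SS or dnFGFR OS.

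Voltage-gated sodium and calcium channels open when a membrane depolarizes. Sodium alpha subunits form the pore that carries the upstroke of the action potential, and sodium beta subunits anchor the pore and set its kinetics. Calcium alpha1 subunits form pores of the L type (somatic and dendritic calcium entry), of the P/Q, N and R types (transmitter release) and of the T type (low threshold bursts), with beta and alpha2delta subunits that bring them to the membrane, while most gamma subunits accompany AMPA receptors. HCN channels open on hyperpolarization and carry the pacemaker current, and such channels shape the burst firing of neurons of the hypothalamus, GnRH neurons included.

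Counted reads per mouse ranged from 32353578 to 39871353. Reads fell on 18416 genes in dnFGFR OS replicate 5 and on 19101 to 19659 genes in each other mouse, so the counts of members called are also given without this mouse. Fgfr1, the gene that the transgene derives from, measured 89.8 CPM ± 4.28 (SD, n = 10 mice) in control and 89.0 CPM ± 6.02 in dnFGFR mice (log2 fold change -0.02, SE 0.0419, adjusted p = 0.938). Gnrh1 was lower in dnFGFR than in control mice, at 2.01 CPM ± 0.390 (SD, n = 10 mice) in control and 1.34 CPM ± 0.309 in dnFGFR mice (log2 fold change -0.58, SE 0.152, adjusted p = 0.0777). The labels give the tissue as brain (mPOA) and the cell type as whole-brain. Genes that mark the preoptic area were detected at low levels (Esr1 3.91 to 7.78 CPM, Moxd1 5.75 to 7.58 CPM, Gal 1.58 to 10.7 CPM), and 5 genes that mark striatal neurons summed to 1118 to 2219.7 CPM. Ttr, the leading gene of the choroid plexus, ranged from 0.209 to 1984 CPM. CPM are counts divided by the size of each library and its TMM factor, and values per mouse are listed in the order of replicates 1 to 5. In bulk tissue, fewer cells of a type and less RNA per cell cannot be told apart.

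Levels were first set side by side within each family, as CPM per kb of exon, since only a level per length compares genes. Scn2a, a sodium channel pore of excitatory axons, led the alpha subunits with 23.5 CPM per kb, and held 36.2% of the level that the 8 members summed to. Scn8a, the pore of the axon initial segment and of nodes, followed with 25.5%, and Scn1a, prominent in inhibitory neurons, with 20.6%. Scn3a, best known from the fetal brain, held 9.59%. Scn9a of sensory neurons held 2.18%. Scn7a, a sodium sensor of glia in the circumventricular organs, held 0.92%, and Scn10a of sensory neurons held 0.13% with 10 to 37 counts per mouse. The SD of Scn2a among the 5 mice of a group ranged from 8.61 to 71.3 CPM. The CPM of Scn2a were 307, 292, 299, 287 and 286 in control SS mice, 295, 242, 354, 284 and 269 in control OS mice, 235, 304, 248, 343 and 283 in dnFGFR SS mice and 321, 254, 309, 315 and 448 in dnFGFR OS mice. The dnFGFR OS mouse at 448 CPM, replicate 5, was the highest of the 20, and all 4 groups overlapped.

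By the length of all exons, the highest level of all 41 genes was that of a sodium beta subunit. Scn4b, whose tail blocks the open pore and gives the resurgent current of fast firing neurons, stood at 136.1 CPM per kb, against 79.1 CPM per kb for Scn2b and 29.4 CPM per kb for Scn3b. The other member of this family is not reported here by name, so these values do not give the margin of the lead. The lead of Scn4b is that of the mean over the 20 mice. It held in neither dnFGFR group, and it did not hold with the longest transcript in place of all exons. Over the 20 mice, Scn4b held 27.9% to 45.2% of the level of its family. Its share averaged 42.8% ± 2.75 (SD, n = 5) in control SS mice, 40.1% ± 3.48 in control OS mice, 35.0% ± 2.52 in dnFGFR SS mice and 31.5% ± 2.94 in dnFGFR OS mice. The test of the level of Scn4b is given with the comparison of the genotypes.

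Scn4b and Scn2b are neighbours on the same strand of chromosome 9, with 8553 bases between them. Promoter windows of 300 bases from RefSeq (250 before and 50 after the start, GRCm38.p6) were found for 29 of the 41 members, and those of this pair are shown because both genes had lower means in dnFGFR than in control mice, beside that of Hcn2, the leading HCN gene. All 3 are on the plus strand, Scn4b at chr9:45138374-45138673, Scn2b at chr9:45117626-45117925 and Hcn2 at chr10:79716384-79716683. Capitals mark GC boxes (GGGCGG on either strand):
Scn4b: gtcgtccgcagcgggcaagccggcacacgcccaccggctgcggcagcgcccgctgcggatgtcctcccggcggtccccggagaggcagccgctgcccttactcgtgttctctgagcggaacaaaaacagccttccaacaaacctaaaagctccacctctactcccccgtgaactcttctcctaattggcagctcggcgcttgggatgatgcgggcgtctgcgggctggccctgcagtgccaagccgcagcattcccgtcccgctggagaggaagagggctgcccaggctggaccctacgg
Scn2b: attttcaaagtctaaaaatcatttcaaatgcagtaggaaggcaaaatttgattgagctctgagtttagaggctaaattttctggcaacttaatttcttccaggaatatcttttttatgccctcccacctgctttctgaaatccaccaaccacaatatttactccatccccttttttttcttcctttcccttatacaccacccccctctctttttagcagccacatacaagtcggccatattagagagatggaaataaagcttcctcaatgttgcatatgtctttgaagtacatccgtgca
Hcn2: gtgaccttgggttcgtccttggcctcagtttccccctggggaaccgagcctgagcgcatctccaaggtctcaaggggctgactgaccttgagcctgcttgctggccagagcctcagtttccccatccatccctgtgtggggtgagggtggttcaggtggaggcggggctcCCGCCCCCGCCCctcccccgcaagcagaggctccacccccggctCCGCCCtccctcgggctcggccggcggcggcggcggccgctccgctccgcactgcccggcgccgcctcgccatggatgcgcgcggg
The Hcn2 window held 3 GC boxes, and the windows of Scn4b and Scn2b held none of the 4 motifs given here. G and C made up 66.3% of the Scn4b window and 38.3% of the Scn2b window, so these neighbours differ in the composition of their start. The median GC content was 60.3% in the windows of members, against 52.7% in all windows, and the motif shares were not adjusted for it. Over both strands, the GC box was present in 45% of the 40 windows of members (17 of 29 genes), against 35.7% of all 32851 windows. TATAAA was present in 5% of members' windows, against 13.6% of all windows. GCGTGGGCG, a site of EGR factors that overlaps a GC box, was present in 2.5% of members' windows, which is that of Scn7a, against 0.612% of all windows. TGACGTCA, the cAMP response element, was in none of the members' windows, against 1.79% of all windows.

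Among the 10 calcium alpha1 subunits, the level per length was spread over several pores. Cacna1h of the T type and Cacna1a of the P/Q type led with 13.3 CPM per kb each and held 17.9% of the family's level each. Cacna1b of the N type (16.02%), Cacna1i of the T type (14.4%) and Cacna1e of the R type (12.3%) followed. Cacna1g of the T type held 9.35%, and the neuronal L type pores Cacna1c and Cacna1d held 6.11% and 5.61%. The L type pores of skeletal muscle, Cacna1s, and of the retina, Cacna1f, held 0.31% and 0.08%, with 14 to 95 and 12 to 31 counts per mouse. Thus the 3 T type pores were all well detected in this tissue. Cacna1h and Cacna1a were within 1 SD of each other, and which of them led depended on the length used, since with the longest transcript in place of all exons they stood at 15.8 and 19.1 CPM per kb.

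Auxiliary calcium channel subunits were led by Cacna2d2, Cacnb3 and Cacng7. Cacna2d2, an alpha2delta subunit that gabapentin binds, held 42.7% of its family's level, Cacna2d3 33.2%, Cacna2d1 23.5% and Cacna2d4, best known from the retina, 0.63%. With the longest transcript the order of the leading pair turned, to 41.5 CPM per kb for Cacna2d3 and 31.0 CPM per kb for Cacna2d2. Control SS mice had Cacna2d2 values of 185, 199, 214, 213 and 193 CPM, control OS mice 185, 182, 193, 171 and 164 CPM, dnFGFR SS mice 188, 191, 163, 169.9 and 174 CPM and dnFGFR OS mice 184, 122, 159, 177 and 174 CPM. Lower values were more frequent in dnFGFR mice, and dnFGFR OS replicate 2 was the lowest of the 20. Cacnb3 held 39.8% of the level of the beta subunits, Cacnb1 30.2%, Cacnb4 25.5% and Cacnb2 4.47%. For Cacnb3, the values were 196, 146, 172, 149 and 168 CPM in control SS, 171, 156, 152, 153 and 193 CPM in control OS, 159, 171, 173, 190.02 and 178 CPM in dnFGFR SS and 130.45, 209.9, 154, 166 and 142 CPM in dnFGFR OS mice. The groups overlapped throughout, and the dnFGFR OS mice spanned the whole range of the 20.

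Gamma subunits were led by Cacng7, a partner of AMPA receptors, with 34.6% of the family's level, followed by Cacng4 with 19.7%, Cacng8 with 17.98%, Cacng3 with 15.5%, Cacng5 with 6.99% and Cacng2 with 4.85%, all of them AMPA receptor partners. Cacng1, the gamma subunit of the muscle calcium channel, held 0.41% with 12 to 60 counts per mouse. Cacng7 measured 154, 138, 146, 144 and 136 CPM in the control SS mice, 138, 162, 123, 144 and 152 CPM in the control OS mice, 139, 156, 175, 153 and 169.8 CPM in the dnFGFR SS mice and 135, 144, 141, 175 and 117 CPM in the dnFGFR OS mice. Every group overlapped every other in Cacng7.

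HCN expression was concentrated in 1 gene. Hcn2 held 87.1% of the level of the 4 HCN genes (84.1% to 89.1% over the 20 mice), Hcn3 7.65% and Hcn4, the slow subunit of the sinoatrial node, 1.97%. In control SS mice Hcn2 stood at 259, 268, 261, 279 and 266 CPM, in control OS mice at 272, 284, 244, 241 and 242 CPM, in dnFGFR SS mice at 214, 261, 261, 224 and 286 CPM and in dnFGFR OS mice at 204, 209, 234, 270.4 and 224 CPM. Control SS mice lay within a narrow band, and the lowest 6 values were those of dnFGFR mice. The share of Hcn2 averaged 87.8% ± 0.59 (SD, n = 5) in control SS, 87.4% ± 0.98 in control OS, 86.5% ± 2.29 in dnFGFR SS and 86.6% ± 1.44 in dnFGFR OS mice.

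**Figure D1:**
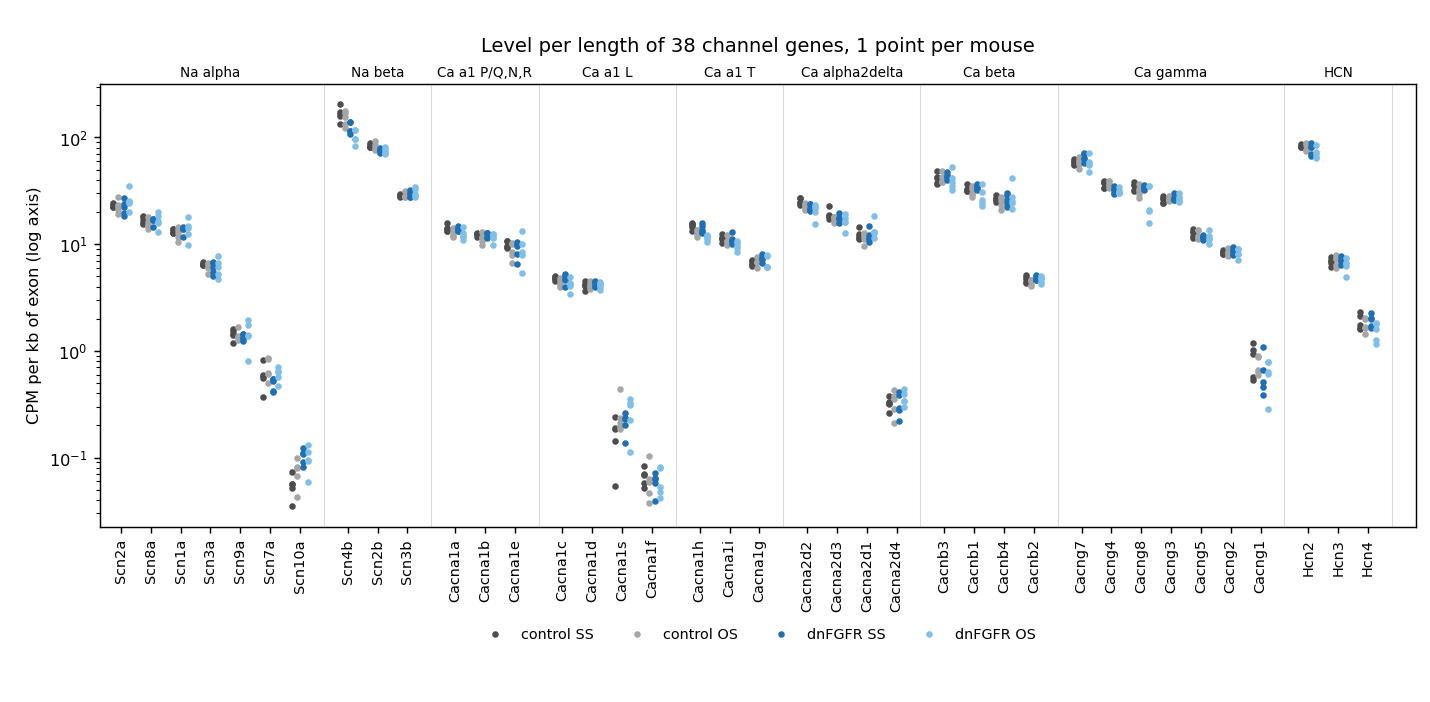
Level of 38 of the 41 genes in each of the 20 mice, in CPM per kb of exon on a log axis, with 1 point per mouse, coloured by group and ordered within each family. Levels ran from 0.062 CPM per kb (Cacna1f) to 136.1 CPM per kb (Scn4b), and Hcn2 stood above the other HCN genes shown in every mouse.

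Channel genes were next compared between dnFGFR and control mice, to see which of them differ where FGF signaling in GnRH neurons is attenuated. Over both housings, Scn4b and Cacng4 were downregulated in dnFGFR mice and no member was upregulated. These 2 of 41 members compare with 1.3% of all genes tested (226 of 17445) at an adjusted p below 0.1 in edgeR's quasi-likelihood test. Scn4b fell by 29.3% and Cacng4, an AMPA receptor partner, fell by 13.7%.

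Mouse by mouse, Scn4b was at 1019, 827, 664, 857 and 786 CPM in control SS mice, 883, 838, 772, 611 and 671 CPM in control OS mice, 531, 702, 577, 569.5 and 702 CPM in dnFGFR SS mice and 484, 485, 414, 582 and 587 CPM in dnFGFR OS mice. In OS mice every dnFGFR value lay below every control value, and over both housings 8 of 10 dnFGFR mice lay below the lowest control mouse. Means were 831 CPM ± 128 (SD, n = 5) in control SS, 755 CPM ± 113 in control OS, 616 CPM ± 80.0 in dnFGFR SS and 510 CPM ± 73.4 in dnFGFR OS mice. The log2 fold change over both housings was -0.50 (SE 0.0855, adjusted p = 0.00406), and it was -0.53 (adjusted p = 0.00226) without dnFGFR OS replicate 5. Scn4b remained called under all 28 settings tried, with log2 fold changes from -0.53 to -0.46. Within SS mice the log2 fold change was -0.43 (SE 0.104, adjusted p = 0.188) and within OS mice -0.57 (SE 0.121, adjusted p = 0.238), so the lower level had its direction in both housings and, in these edgeR fits, passed the test over both together and in neither alone. The same 20 mice stand behind the pooled and the separate values.

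The CPM of Cacng4 were 139.9, 120.2, 134, 137 and 119 in control SS mice, 129.96, 138, 140.3, 121 and 126 in control OS mice, 114, 126, 108, 105 and 117 in dnFGFR SS mice and 122, 107, 110.0, 112 and 107 in dnFGFR OS mice. The 10 control mice spanned 119 to 140.3 CPM, and 8 of 10 dnFGFR mice lay below 119 CPM. Means were 130.1 CPM ± 9.61 (SD, n = 5) in control SS, 131 CPM ± 8.30 in control OS, 114 CPM ± 8.29 in dnFGFR SS and 112 CPM ± 6.22 in dnFGFR OS mice. Its log2 fold change over both housings was -0.21 (SE 0.0457, adjusted p = 0.0258), and it was called under all 28 settings, from -0.23 to -0.19. Within SS mice it was -0.19 (SE 0.0626, adjusted p = 0.354) and within OS mice -0.23 (SE 0.0668, adjusted p = 0.60). Housing left its means within 1 SD of each other in both genotypes.

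**Figure D2:**
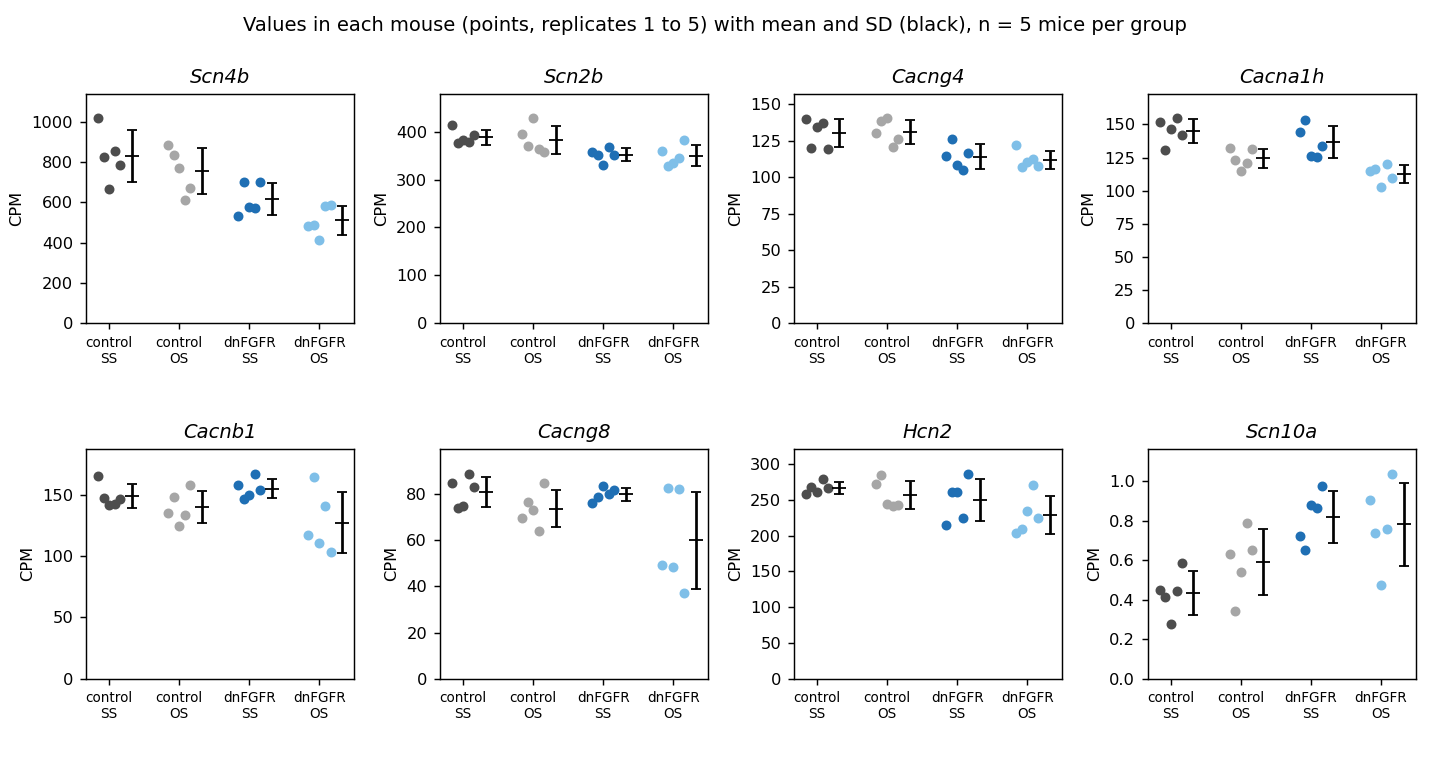
CPM of 8 channel genes in each mouse (points, replicates 1 to 5 from left to right), with the mean and SD of each group beside them in black (n = 5 mice per group) and axes from 0. Scn4b and Cacng4 lay lower in both dnFGFR groups, Cacna1h lay lower in both OS groups, and Cacng8 and Cacnb1 were widely spread in dnFGFR OS mice.

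Scn2b, the neighbour of Scn4b and a subunit that links sodium channels to the cell surface and matrix, had the third smallest p over both housings. Control SS mice had Scn2b values of 414, 376, 382, 378 and 392.4 CPM, control OS mice 396, 371, 429, 364 and 358 CPM, dnFGFR SS mice 358, 352, 330.1, 368 and 351 CPM and dnFGFR OS mice 360.2, 328, 335, 344 and 383 CPM. In SS mice, all 5 dnFGFR values lay below all 5 control values, while in OS mice the groups overlapped. The log2 fold change over both housings was -0.14 (SE 0.0417, adjusted p = 0.151), which did not pass the test in edgeR but passed with DESeq2, with offsets for GC content and length, or without dnFGFR OS replicate 5. Scn2b overlaps Gm10684 in the annotation, and the library kit does not mark strand, so reads shared by the pair cannot be told apart. For the beta subunit Scn3b the log2 fold change was 0.06 (adjusted p = 0.661).

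At an unadjusted p below 0.05, 7 members were lower and 1 was higher in dnFGFR mice over both housings, or 19.5% of the 41, against 11.2% of all genes tested (5.84% lower and 5.37% higher). The median log2 fold change of the 41 was -0.04 and 19 were above 0, or 46.3%, against 49.8% of all genes. By family, values were mixed: 4 of 8 sodium alpha, 2 of 4 sodium beta, 4 of 10 calcium alpha1, 2 of 4 alpha2delta, 3 of 4 calcium beta, 3 of 7 gamma and 1 of 4 HCN genes were above 0.

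Scn10a was the member with the smallest p among those higher in dnFGFR mice, at very low counts. Scn10a had 15, 15, 10, 18 and 23 counts in control SS mice, 21, 12, 19, 26 and 23 in control OS mice, 25, 24, 31, 29 and 37 in dnFGFR SS mice and 31, 27, 16, 27 and 34 in dnFGFR OS mice. In SS mice every dnFGFR count lay above every control count, and in OS mice the groups overlapped. Its log2 fold change over both housings was 0.65 (SE 0.196, adjusted p = 0.157).

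Within SS mice alone, edgeR called 0 of the 41 members (0.2% of all genes tested). DESeq2 called 1, Scn4b, for which its own share of all genes is not given. In edgeR, 7 members had an unadjusted p below 0.05, or 17.1%, against 8.63% of all genes (4.51% lower and 4.12% higher). Of the 41 members, 16 had a log2 fold change above 0, or 39.0%, against 51.6% of all genes. Of the 7, Scn4b, Scn2b, Cacna2d2 and Cacng4 were lower, and Scn10a, Cacna1g and Cacng7 were higher. Cacna1g measured 66.9, 64.5, 64.0, 70.4 and 71.8 CPM in the control SS mice, 76.5, 60.0, 69.1, 69.3 and 69.0 CPM in the control OS mice, 82.2, 74.0, 77.0, 67.7 and 74.2 CPM in the dnFGFR SS mice and 62.1, 61.9, 78.0, 80.0 and 61.8 CPM in the dnFGFR OS mice. The dnFGFR SS values of this T type pore overlapped the upper control values, and the log2 fold change was 0.15 (SE 0.0574, adjusted p = 0.457). Within OS mice alone, edgeR called 0 members (0.0531% of all genes tested). DESeq2 called 1, again Scn4b and again without its own share of all genes. In edgeR, 3 members had an unadjusted p below 0.05, or 7.32%, against 7.02% of all genes (3.93% lower and 3.1% higher). Those 3 were Scn4b, Cacng4 and Cacna1h, all lower. Again 16 of 41 members were above 0, against 50% of all genes. Cacna2d1, an alpha2delta subunit, had the smallest p among members higher in dnFGFR OS mice. In control SS mice Cacna2d1 stood at 179, 139, 155, 141 and 149 CPM, in control OS mice at 153, 119.7, 158, 149 and 139.7 CPM, in dnFGFR SS mice at 152, 143, 131, 186 and 139.7 CPM and in dnFGFR OS mice at 161, 143, 159, 161 and 230.3 CPM. Replicate 5 was the highest of the dnFGFR OS mice, and the log2 fold change was 0.25 (SE 0.124, adjusted p = 0.73) with it and 0.11 without it.

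Marker genes of several regions and cell types moved beside these members. Scn4b and 5 striatal markers (Drd1, Drd2, Ppp1r1b, Adora2a and Rgs9) are all known from medium spiny neurons of the striatum. All 5 had a lower value in dnFGFR mice over both housings, with log2 fold changes from -0.27 to -0.15, and Drd2 (adjusted p = 0.0324) and Rgs9 (adjusted p = 0.0303) passed the test. Their summed level ranged from 1736 to 2219.7 CPM in control mice (mean 1954) and from 1118 to 2055 CPM in dnFGFR mice (mean 1674), and none of the 5 was at 0 in any mouse. The cortical markers Slc17a7 and Tbr1 had log2 fold changes of 0.55 and 0.41 without passing the test, and their sum ranged from 134 to 514 CPM in control and from 259 to 680.1 CPM in dnFGFR mice. Markers of all neurons summed to a mean of 3413 CPM in control and 3759 CPM in dnFGFR mice, and markers of GABA neurons to 1801 and 1762 CPM. Apart from Drd2, Rgs9 and Gnrh1, no marker passed the test in any of the 7 comparisons. Over both housings, all 4 oligodendrocyte markers had log2 fold changes below 0 (-0.26 to -0.15). So did all 4 markers of endothelium and mural cells (-0.39 to -0.12) and all 3 of the choroid plexus (-0.52 to -0.24). Of the markers of astrocytes 1 of 4, of microglia 3 of 4 and of muscle 1 of 3 were below 0. Of the 6 markers of the preoptic area, 4 were below 0 and 2 above it (-0.58 to 0.15). The marker of glutamate neurons of the hypothalamus, Slc17a6, was at 0.10. The part of these markers in the lower Scn4b and Cacng4 was not tested.

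**Figure D3:**
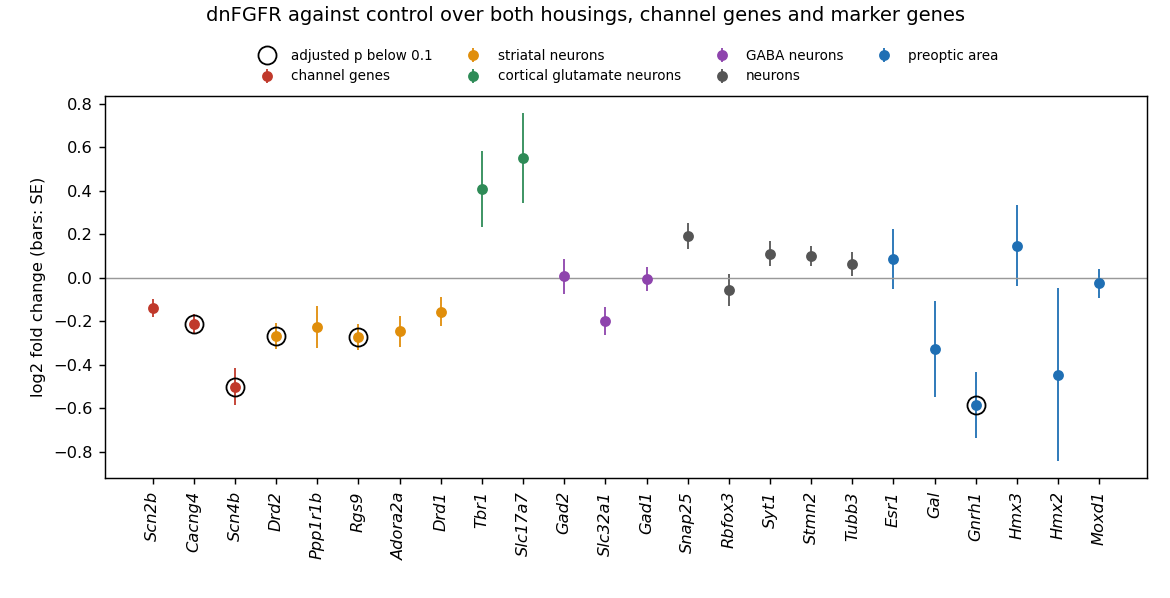
Fitted log2 fold changes of dnFGFR against control mice over both housings (points, with SE bars; n = 20 mice) for 3 channel genes and for marker genes of 5 kinds, with circles around genes at an adjusted p below 0.1. Scn4b, at -0.50, lay below every striatal marker, which ran from -0.27 to -0.15, and the cortical markers lay at 0.41 and 0.55.

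The comparison of OS with SS mice shows which channel genes differ with housing, in which partner sex and breeding go together. Over both genotypes, Cacna1h, a T type calcium channel pore of bursting neurons, was downregulated in OS mice, and no other member passed. This 1 of 41 compares with 0.0459% of all genes tested (8 of 17445). Cacna1h fell by 15.9%.

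Mouse by mouse, Cacna1h was at 152, 131, 146, 155 and 142 CPM in control SS mice, 132, 123, 115, 121 and 132 CPM in control OS mice, 145, 153, 126, 125 and 134 CPM in dnFGFR SS mice and 115, 116, 103, 119.9 and 109 CPM in dnFGFR OS mice. In dnFGFR mice every OS value lay below every SS value, and in control mice 1 SS and 2 OS values crossed. Means were 145 CPM ± 9.37 (SD, n = 5) in control SS, 125 CPM ± 7.24 in control OS, 137 CPM ± 11.9 in dnFGFR SS and 113 CPM ± 6.65 in dnFGFR OS mice. The log2 fold change over both genotypes was -0.25 (SE 0.0463, adjusted p = 0.0885). It was -0.22 (SE 0.0561, adjusted p = 0.248) within control mice and -0.28 (SE 0.0746, adjusted p = 0.726) within dnFGFR mice. The call was less firm than those between genotypes, since it held under 12 of 28 settings. It was lost with the replicate number as a block (adjusted p = 0.11), with offsets for GC content and length (log2 fold change -0.11, adjusted p = 0.371), without dnFGFR OS replicate 5 (adjusted p = 0.122) and with most of the other mice left out in turn, although the direction was the same throughout. In mice of those dates that held both housings, the log2 fold change was -0.14 in control mice (2 SS and 5 OS) and -0.35 in dnFGFR mice (2 SS and 4 OS). Cacna1h overlaps Tpsg1 in the annotation.

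At an unadjusted p below 0.05, 9 members were lower and 0 were higher in OS mice over both genotypes, or 22.0% of the 41, against 11.2% of all genes tested (5.74% lower and 5.47% higher). The 9 were Cacna1h, Cacna1a, Cacnb1, Cacna1i, Cacna1c, Cacng8, Scn4b, Cacna2d2 and Hcn4. The median log2 fold change of the 41 was -0.05 and 10 members were above 0, or 24.4%, against 50.1% of all genes. The members differ from all genes in median GC content (52.9% against 49.9%) and in the median length of the longest transcript (6251 against 3187 bases). Over all genes, Spearman's rho between GC content and log2 fold change was -0.38 in this comparison. In a fit with offsets for GC content and length, Cacna1h had a log2 fold change of -0.11 and no member was called. The counts above are those without offsets, and the part of GC content and length in them was not tested. Among calcium alpha1 pores, 9 of 10 were below 0, and the 3 T type pores ran from -0.25 to -0.05. The CPM of Cacna1a were 180.2, 153, 161, 150.2 and 159.6 in control SS mice, 160.3, 133, 146, 136 and 153 in control OS mice, 157, 161, 150.4, 152 and 168 in dnFGFR SS mice and 132, 124, 147, 165 and 137 in dnFGFR OS mice. The groups of this P/Q type pore overlapped in both genotypes, and the log2 fold change was -0.15 (SE 0.0513, adjusted p = 0.268). The members with the smallest p among those higher in OS mice had low counts. Cacna1s had 41, 45, 34, 64 and 14 counts in control SS mice, 95, 45, 43, 51 and 49 in control OS mice, 31, 49, 54, 58 and 57 in dnFGFR SS mice and 70, 54, 78, 75 and 24 in dnFGFR OS mice. Scn7a had 91, 154, 146, 243 and 170 counts in control SS mice, 150, 129, 219, 204 and 156 in control OS mice, 107, 146, 142, 128 and 115 in dnFGFR SS mice and 176, 125, 157, 149 and 154 in dnFGFR OS mice. The log2 fold change was 0.47 (SE 0.239, adjusted p = 0.482) for Cacna1s and 0.26 (SE 0.13, adjusted p = 0.463) for Scn7a, and for both the counts of SS and OS mice overlapped.

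Marker genes of several kinds moved beside these members in the housing comparison as well. All 5 striatal markers had a lower value in OS than in SS mice over both genotypes, with log2 fold changes from -0.22 to -0.04, and none passed the test (smallest adjusted p = 0.175, for Rgs9). Their summed level ranged from 1661 to 2219.7 CPM in SS mice (mean 1927) and from 1118 to 2122 CPM in OS mice (mean 1701). Within dnFGFR mice the 5 ran from -0.42 to -0.03 and within control mice from -0.18 to -0.01. The cortical markers Slc17a7 and Tbr1 had values of 0.07 to 0.08 over both genotypes. The part of these markers in the lower values of members in OS mice, Scn4b among them, was not tested.

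**Figure D4:**
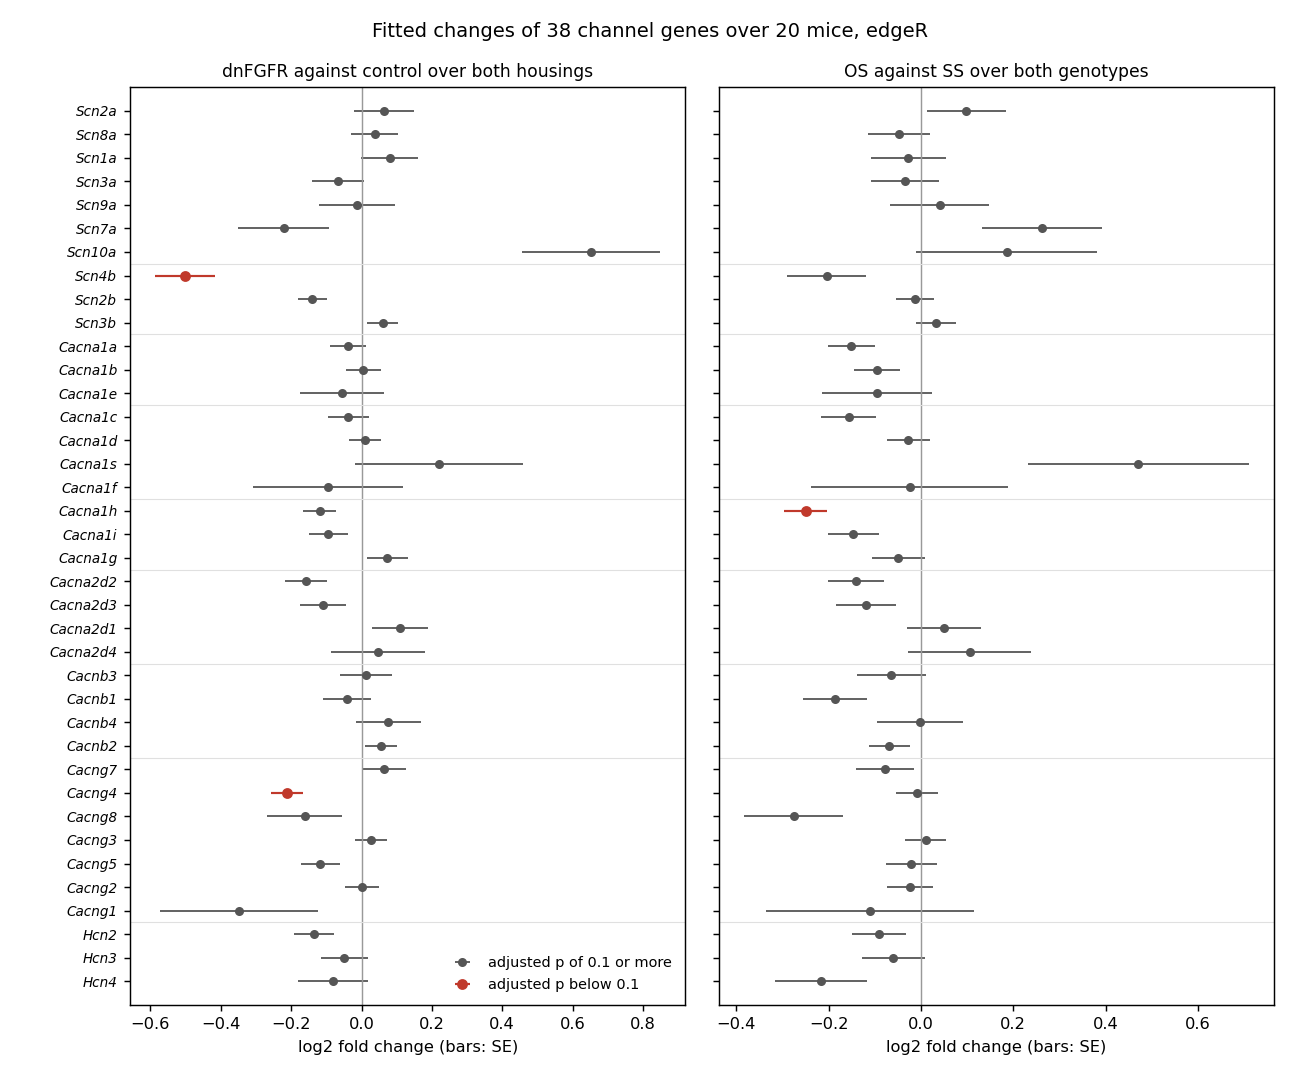
Fitted log2 fold changes of 38 of the 41 channel genes over the 20 mice (points, with SE bars), for dnFGFR against control mice on the left and OS against SS mice on the right, with genes at an adjusted p below 0.1 in red. Scn4b (-0.50) and Cacng4 (-0.21) stand out on the left and Cacna1h (-0.25) on the right, and most other points lie to the left of 0 on the right.

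Within control mice, edgeR called 0 of 41 members (0.124% of all genes tested). DESeq2 called 1, Cacna1h, for which its own share of all genes is not given. In edgeR, 4 members had an unadjusted p below 0.05, or 9.76%, against 7.2% of all genes (3.54% lower and 3.66% higher). These were Cacna1h, Cacna2d2, Cacna1c and Cacna1a, all lower in OS mice. The median log2 fold change was -0.08, and 11 of 41 members were above 0, or 26.8%, against 50.9% of all genes. In mice of dates that held both housings, the median was -0.04 with 12 above 0.

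Within dnFGFR mice, edgeR and DESeq2 each called 0 of 41 members, and edgeR called 0% of all genes tested. At an unadjusted p below 0.05, 6 members were lower and 0 higher, or 14.6%, against 6.72% of all genes (3.77% lower and 2.95% higher). They were Cacna1h, Cacnb1, Scn4b, Cacna1i, Hcn4 and Cacng8. Of the 41, 15 were above 0, or 36.6%, against 50.9% of all genes. Control SS mice had Cacnb1 values of 165, 148, 142, 143 and 147 CPM, control OS mice 135, 148, 124, 134 and 158 CPM, dnFGFR SS mice 158, 147, 149.5, 167 and 154 CPM and dnFGFR OS mice 118, 165, 110.2, 141 and 103 CPM. In this beta subunit, dnFGFR OS replicate 2 lay within the SS values and replicate 4 just under them, and the other 3 lay further below (log2 fold change -0.28, SE 0.113, adjusted p = 0.726). Cacnb1 overlaps Rpl19 in the annotation. For Cacng8, the values were 84.9, 74.1, 74.8, 88.9 and 83.3 CPM in control SS, 69.7, 76.8, 73.4, 64.1 and 85.1 CPM in control OS, 76.1, 78.9, 83.5, 80.2 and 81.7 CPM in dnFGFR SS and 49.5, 82.6, 48.5, 82.4 and 37.2 CPM in dnFGFR OS mice. Cacng8, named after its values were seen, had the lowest fold change of the 41 here, and its dnFGFR OS values fell apart into replicates 2 and 4 near the SS level and the other 3 well below it (log2 fold change -0.41, SE 0.185, adjusted p = 0.726). The sodium alpha subunits had the opposite sign, with 6 of 8 above 0, and Scn2a (0.22, adjusted p = 0.784) and Scn7a (0.30, adjusted p = 0.741) had the smallest p. Without dnFGFR OS replicate 5, the number of members above 0 went from 15 to 7 of 41 and the median from -0.05 to -0.08, with 0 called.

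These housing values of dnFGFR mice were ordered by the GC content of the transcripts. Across the 41 members, Spearman's rho between GC content and log2 fold change was -0.74 in dnFGFR mice and -0.06 in control mice, as a description of genes measured in the same libraries. Across all genes it was -0.48 and -0.09. Members with low GC content such as Scn7a (40.2%) and Scn2a (43.4%) had values above 0. Of members with high GC content, Cacng8 (65.1%, log2 fold change -0.41) and Cacna1h (60.0%, -0.28) were among the lowest values. Hcn2 (65.4%, -0.13) and Cacnb3 (61.3%, -0.12) were also below 0 but nearer to it. With offsets for GC content and length, the median log2 fold change of the members in dnFGFR mice was -0.0047, 19 of 41 were above 0, and 2 members had an unadjusted p below 0.05. The offsets were fitted to these same libraries. By construction they remove any trend with GC content or length, a true difference between housings that follows it included. The source of the trend was not tested. In the comparison over both genotypes rho was -0.54, and in that of dnFGFR with control mice over both housings, where Scn4b and Cacng4 have 54.5% and 54.4% GC, it was -0.29. With the offsets, Scn4b (-0.47, adjusted p = 0.00365) and Cacng4 (-0.19, adjusted p = 0.0529) stayed called.

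**Figure D5:**
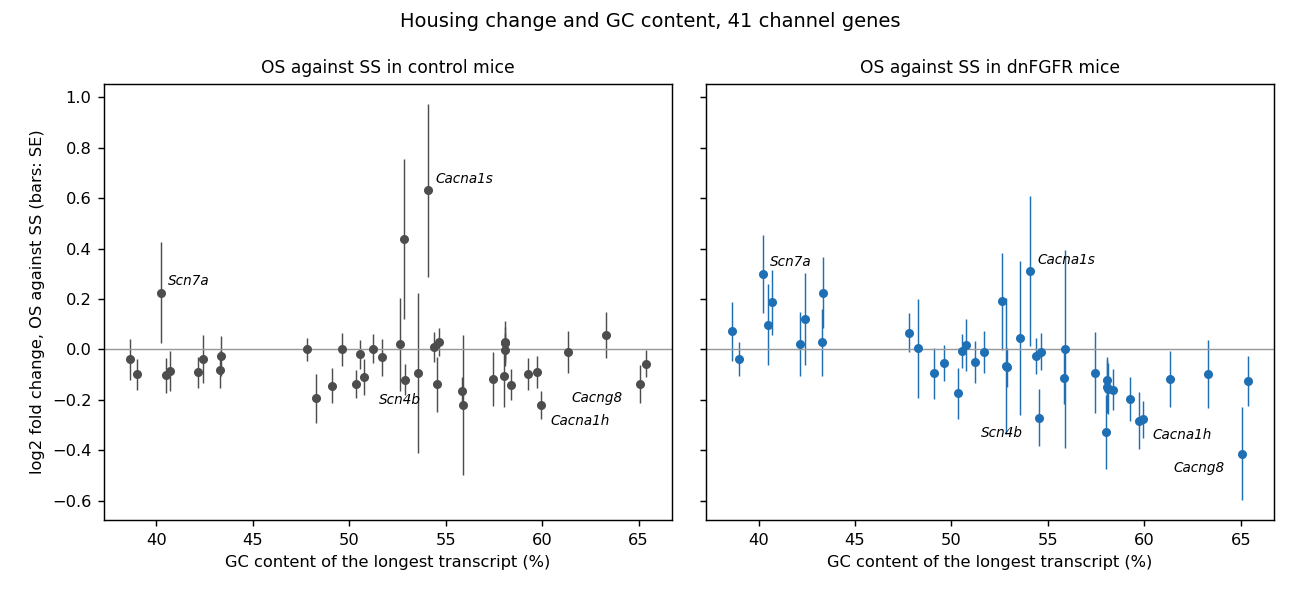
Log2 fold change of OS against SS mice (with SE bars) against the GC content of the longest transcript of each of the 41 genes, in control mice on the left and dnFGFR mice on the right (n = 10 mice each). The points run downward with GC content in dnFGFR mice (rho -0.74) and show no such order in control mice (rho -0.06).

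Whether the response to housing differed between genotypes was tested as an interaction over the 4 groups. edgeR and DESeq2 each called 0 of 41 members, 0 had an unadjusted p below 0.05 in either tool, against 3.41% of all genes in edgeR (1.89% below and 1.52% above 0), and 0% of all genes were called. Of the 41 estimates 21 were above 0, or 51.2%, against 50.1% of all genes. By family, 7 of 8 sodium alpha and 4 of 4 alpha2delta genes were above 0, and 7 of 10 calcium alpha1, 5 of 7 gamma and 3 of 4 HCN genes were below 0. The smallest p were those of Cacna2d1 (0.27, SE 0.161, adjusted p = 0.963) and Scn2a (0.25, SE 0.172, adjusted p = 0.963) above 0, and of Cacnb1 (-0.19, SE 0.137, adjusted p = 0.963) and Hcn3 (-0.18, SE 0.136, adjusted p = 0.963) below 0. Hcn3 measured 25.2, 29.0, 31.3, 29.2 and 27.8 CPM in the control SS mice, 25.1, 33.0, 26.5, 30.9 and 29.9 CPM in the control OS mice, 30.4, 28.9, 28.8, 32.2 and 26.6 CPM in the dnFGFR SS mice and 30.8, 25.9, 27.8, 27.5 and 20.3 CPM in the dnFGFR OS mice. Hcn3 overlaps Pklr in the annotation, its groups overlapped, and dnFGFR OS replicate 5 was the lowest. For Cacna1h the interaction was -0.06 (SE 0.0925, adjusted p = 0.966), and for Scn4b it was -0.13 (SE 0.171, adjusted p = 0.963).

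Proteins that bind or traffic these channels were read from a list of 28 genes, all of them tested. None was called in any of the 7 comparisons by edgeR. Over both housings, 2 were lower and 1 was higher in dnFGFR mice at an unadjusted p below 0.05, against 11.2% of all genes tested, with a median log2 fold change of 0.03. Dpysl2, a binding partner of N type channels, had a value of 0.13 on the log2 scale (SE 0.0455, adjusted p = 0.23), and Tpcn1, a channel of endolysosomes, -0.15 (SE 0.0538, adjusted p = 0.27). Over both genotypes, 3 were higher and 1 was lower in OS mice at that threshold, again against 11.2% of all genes. Both counts, of 28 genes, are near the share of all genes. Sptbn4, the spectrin that holds sodium channels at the axon initial segment, had the smallest p (log2 fold change -0.24, SE 0.0532, adjusted p = 0.142). Its means were 289 CPM ± 8.42 (SD, n = 5) in control SS, 265 CPM ± 17.02 in control OS, 302 CPM ± 22.5 in dnFGFR SS and 236 CPM ± 30.9 in dnFGFR OS mice. The FGF homologous factors of sodium channels included Fgf12, with 0.15 (SE 0.065, adjusted p = 0.392) in OS against SS mice and an adjusted p above 0.1 in each comparison.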

How the data were processed

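Total RNA of the POA of 20 male mice (4 groups of 5) was sequenced from libraries made with a kit that does not mark strand. The authors deposited raw counts for 25239 RefSeq genes, which Rsubread made from HISAT2 alignments to GRCm38. The submitters' processing notes also list DESeq2 1.36.0. Options for reads that map to several places or overlap several genes are not given in the sources used here, so values of members that overlap another gene are less certain. Another 20 columns of the deposited table match none of the samples and were left out.

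Counts were tested with edgeR 4.0.16 in R 4.3.3 (quasi-likelihood test, TMM, filterByExpr, Benjamini-Hochberg adjustment over all genes tested, called at an adjusted p below 0.1). Comparisons within 1 genotype or 1 housing used only the 10 mice concerned, and the interaction and the comparisons over both housings or both genotypes used all 20 mice. All 41 members passed the filter in each of the 7 comparisons. The SE of a log2 fold change, in text and figures, was derived from the quasi-likelihood test. It is the absolute log2 fold change divided by the square root of the F statistic. The steps were tested on simulated data for some of the 7 comparisons. There, 200 genes were changed by 1 on the log2 scale, and 70.4% to 91.5% of them were called. Changes as small as those of the members called here were not simulated. Levels are CPM scaled with TMM factors, divided by the length of all exons of a gene (GENCODE vM21 on GRCm38) where genes are compared. GC content is that of the longest transcript, known for 97.9% of genes and 41 of 41 members. Depth (33798011 to 36094734 counted reads per mouse as group medians) limits members near 10 counts, and p-values measure the spread between these mice. Beside the motifs given, the response elements of REST, estrogen and glucocorticoid receptors were searched, matched no window of a member and are not reported here.

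The members and gene lists were chosen with earlier results of these data known. Values in every mouse are given for the member with the highest level per length in each family, for each member called, and for the 2 higher and the 2 lower members of smallest p in each comparison. Some genes of the families and marker lists are not reported here by name: counts over the 41 members include them, and marker sums do not. Alternatives were DESeq2 1.42.0, RLE size factors, no filter, 10 counts in every mouse, an adjusted p below 0.05, a replicate block, offsets for GC content and length with and without that block, all 4 groups in 1 fit, mice of collection dates that held both housings, each mouse left out, and the length of the longest transcript.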

Additional observations from a re-analysis of the deposited data

Results flagged for a closer look

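Within the 4 groups, the highest or lowest mouse was looked for in each of 38 genes, by whether its gap to the nearest other mouse filled more than 0.71 of the range of the 5 mice. It stood apart in 8 of 152 groups, and chance alone sets a mouse apart in about 1 in 20 groups. In control SS mice, replicate 1 stood apart with 165 CPM of Cacnb1 (others 142 to 148 CPM) and replicate 2 with 115 CPM of Cacna1b (others 123 to 126 CPM). In control OS mice, replicate 1 stood apart with 2.86 CPM of Cacna1s (others 1.22 to 1.55 CPM), and replicate 3 with 172 CPM of Scn3b (others 151 to 155 CPM) and 21.5 CPM of Scn9a (others 16.2 to 17.5 CPM). In dnFGFR SS mice, replicate 3 was the lowest in Scn1a with 129.5 CPM (others 154 to 163 CPM) and in Scn8a with 229.99 CPM (others 264 to 274 CPM), both pores of action potential firing. In dnFGFR OS mice, replicate 5 stood apart with 230.3 CPM of Cacna2d1 (others 143 to 161 CPM), and it was also the mouse with reads on the fewest genes. None of the 3 members called in a comparison is among these genes.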

How the results depend on the processing

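Scn4b and Cacng4 were called in dnFGFR against control mice over both housings under all 28 settings, and Cacna1h in OS against SS mice over both genotypes under 12 of 28. No called fold change of a named member changed sign. Of 601 fold changes of named members under alternatives, 579 kept their direction and their side of the threshold, 17 (all of Cacna1h over both genotypes) lost the call and 5 gained it. The number of members called in OS against SS mice over both genotypes went from 1 to 0 with an adjusted p below 0.05, with the replicate block and with the offsets for GC content and length, alone or with the replicate block, and ranged from 0 to 3 with each mouse left out. It was 3 (Cacna1h, Cacnb1 and Cacng8) without dnFGFR OS replicate 2 and 0 without dnFGFR OS replicate 5. Without replicate 2, edgeR gave Cacna1h an unadjusted p of 2.4e-05 and an adjusted p of 0.0396. The main fit gave 2.14e-05 and 0.0885, so the adjusted p fell without a smaller unadjusted p. The share of all genes called in that fit is not given, so the 3 are not read as a result about these members. With 1 mouse left out, Cacna1h kept its call only without control SS replicate 2, control OS replicates 1 or 5, dnFGFR SS replicates 3 or 4, or dnFGFR OS replicates 2 or 4. In dnFGFR against control mice over both housings it ranged from 2 to 3 with each mouse left out, and Scn2b was the member gained without dnFGFR OS replicate 5. DESeq2 called 1 member in control OS against SS mice (Cacna1h), 1 in dnFGFR against control SS mice and 1 in dnFGFR against control OS mice (both Scn4b), where edgeR called 0. The shares of all genes given beside counts of calls are those of edgeR. DESeq2 gave smaller p-values for these members, for example 6.12e-09 against 7.22e-06 in edgeR for Scn4b over both housings, so its calls stand without a background. All 4 groups in 1 fit called 1 member in dnFGFR against control OS mice (Scn4b), and leaving out control SS replicate 3 called 1 in SS mice, so the number there ranged from 0 to 1. Shares of all genes called in fits other than the main one are not given. Counts of calls in those fits are not read as results about the members. In dnFGFR against control OS mice and in the other 3 comparisons, each mouse left out gave 0. The causes were not tested. Same-numbered mice did not deviate together: correlations of their deviations from the group means ran from -0.0321 to 0.154 in control and from -0.0633 to 0.256 in dnFGFR mice across housings, and from -0.239 to 0.0283 in SS and from -0.133 to 0.103 in OS mice across genotypes, so the replicate block pairs mice by number only. With the longest transcript in place of all exons, levels per length of Cacna1h, Cacna2d2, Cacnb3 and Scn2a rose by over 1 SD, to 15.8, 31.0, 60.9 and 33.4 CPM per kb, and 4 of 7 families had the same highest member. Cacna1a then led Cacna1h, Cacna2d3 (41.5 CPM per kb) led Cacna2d2, and Scn4b no longer led the sodium beta subunits. At these depths the members with 10 to 37 counts, such as Scn10a, carry wide errors.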
